A study of Mus musculus with 4 samples.

Results

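The interleukin 1 family and inflammasome genes described here are 10 mouse genes, named by their place in a single signalling system and not by their values in these cells. They are the ligands Il1a, Il1b, Il18 and Il33, the receptor antagonist Il1rn, the receptors Il1r1 and Il1rl1, the decoy receptor Il1r2, the inflammasome sensor Nlrp3 and the protease Casp1. All 10 were found among the 24783 genes of the deposited single-cell matrix. Their unique molecular identifiers (UMIs, each a counted RNA molecule) were summed over the cells of each class in each library and given as UMIs per 1000000 UMIs of that class and library (CPM).

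The cells came from retina and choroid of wild-type (WT) mice. The aged CNV group held mice over 18 months old, 3 days after laser burns (532 nm, 200 mW, 0.15 s, 100 µm) that model choroidal neovascularization (CNV), the growth of choroidal vessels seen in wet macular degeneration. The aged control group held mice of that age without lesions. The young CNV and young control groups held mice of 6 to 8 weeks with and without the same burns. The retina was digested with papain apart from the choroid and sclera, its rods were depleted with a CD73 antibody, and the suspensions were pooled before droplet capture. There was 1 library per group, with the number and strain of the mice not stated in the labels, so no difference reported below has a replicate check and no p-value is given. The laser lesion is an acute wound, and the share of each cell class depends on the dissection and on rod removal as well as on the tissue.

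Interleukin 1 alpha and beta bind the same receptor, Il1r1, which recruits Myd88 and the Irak kinases and turns on NF-kB. The antagonist Il1rn occupies that receptor without signalling, and Il1r2 binds the ligands without passing on a signal. The sensor Nlrp3 assembles with the adaptor Pycard and activates Casp1, which cleaves the precursors of interleukin 1 beta and interleukin 18 into their secreted forms, so that transcript levels do not show how much active cytokine is made. Interleukin 33 is held in the nucleus and released by damaged cells, and its receptor Il1rl1 (ST2) is known from mast cells and type 2 lymphocytes. In the eye these genes have been studied in models of macular degeneration, where myeloid cells enter the choroid after laser injury.

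Promoters are shown for the genes whose levels shared a class in the results that follow. Il1b, Il1r2 and Nlrp3 had their highest mean level over libraries of at least 20 cells in neutrophil-like cells. Il1rn and Il33 moved together in a fibroblast-like cluster. Each run holds the 250 bases before a RefSeq transcription start (GRCm38.p6), 5′ to 3′ on the gene's strand, in lower case, with capitals for letters that match a searched motif. All 10 members had an entry, with 16 starts among them, and the UMI table does not tell which start was used.
Il1b (chr2:129371140-129371389, minus strand): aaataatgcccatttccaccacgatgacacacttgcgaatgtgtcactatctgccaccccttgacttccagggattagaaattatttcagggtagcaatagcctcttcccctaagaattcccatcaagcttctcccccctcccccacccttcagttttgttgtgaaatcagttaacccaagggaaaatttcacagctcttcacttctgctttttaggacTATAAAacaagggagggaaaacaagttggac
Il1r2 (chr1:40085843-40086092, plus strand): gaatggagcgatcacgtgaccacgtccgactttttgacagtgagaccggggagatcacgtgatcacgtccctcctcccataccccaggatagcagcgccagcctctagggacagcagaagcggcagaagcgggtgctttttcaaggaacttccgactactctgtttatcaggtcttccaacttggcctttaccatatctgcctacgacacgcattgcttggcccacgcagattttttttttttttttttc
Nlrp3, start 1 of 2 (chr11:59541319-59541568, plus strand): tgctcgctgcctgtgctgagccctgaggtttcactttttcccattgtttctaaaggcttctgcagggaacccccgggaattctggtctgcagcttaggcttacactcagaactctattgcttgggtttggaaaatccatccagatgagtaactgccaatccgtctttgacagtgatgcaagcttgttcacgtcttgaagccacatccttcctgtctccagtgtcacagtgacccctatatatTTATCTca
Nlrp3, start 2 of 2 (chr11:59542436-59542685, plus strand): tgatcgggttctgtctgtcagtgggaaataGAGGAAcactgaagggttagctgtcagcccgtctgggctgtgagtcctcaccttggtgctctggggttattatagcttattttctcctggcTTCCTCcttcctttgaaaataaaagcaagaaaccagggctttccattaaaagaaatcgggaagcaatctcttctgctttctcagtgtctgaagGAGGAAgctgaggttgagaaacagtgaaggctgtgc
Il1rn, start 1 of 3 (chr2:24336610-24336859, plus strand): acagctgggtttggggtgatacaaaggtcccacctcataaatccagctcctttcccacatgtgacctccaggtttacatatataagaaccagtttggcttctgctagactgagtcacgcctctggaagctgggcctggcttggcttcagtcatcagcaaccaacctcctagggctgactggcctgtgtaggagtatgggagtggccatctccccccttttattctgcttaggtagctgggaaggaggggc
Il1rn, start 3 of 3 (chr2:24345121-24345370, plus strand): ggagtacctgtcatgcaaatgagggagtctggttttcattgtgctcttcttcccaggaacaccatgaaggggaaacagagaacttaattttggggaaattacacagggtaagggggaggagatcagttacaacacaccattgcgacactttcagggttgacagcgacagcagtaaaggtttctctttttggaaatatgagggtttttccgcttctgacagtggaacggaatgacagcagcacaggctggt
Il33, start 1 of 2 (chr19:29924863-29925112, plus strand): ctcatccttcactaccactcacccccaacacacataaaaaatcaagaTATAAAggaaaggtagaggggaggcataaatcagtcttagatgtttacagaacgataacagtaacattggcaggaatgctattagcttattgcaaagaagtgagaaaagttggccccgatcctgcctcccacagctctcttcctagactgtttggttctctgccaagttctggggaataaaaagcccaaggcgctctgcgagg
Il33, start 2 of 2 (chr19:29945540-29945789, plus strand): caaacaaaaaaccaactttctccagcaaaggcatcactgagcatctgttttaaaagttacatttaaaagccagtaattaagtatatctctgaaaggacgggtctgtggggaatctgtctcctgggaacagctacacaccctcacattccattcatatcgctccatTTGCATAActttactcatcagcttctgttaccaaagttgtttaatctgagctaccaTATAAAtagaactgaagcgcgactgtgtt

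The motifs, searched on both strands, were GGGA and TTCC around any 2 bases for NF-kB (in 1.21% of 32851 RefSeq promoters of this length), GAGGAA for PU.1 (23.3%), TTGCNNAA for C/EBP (9.56%), AGATAA for GATA factors (9.99%) and TATAAA for the TATA box (12.4%). The Il1b promoter held TATAAA 31 bases before its start. The second Nlrp3 start had 3 matches to the PU.1 letters, the nearest 36 bases before the start, and the first had AGATAA on the reverse strand 8 bases before it. The second Il33 start had TATAAA 29 bases and TTGCNNAA 85 bases before it, and its first start had TATAAA at 203 bases. The printed Il1r2 and Il1rn promoters held none of the 5 motifs, and the NF-kB letters occurred in no member's window. A match is a description of the letters and no evidence of binding.

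The 4 libraries held 7731 cells in aged CNV, 6676 in aged control, 10867 in young CNV and 11427 in young control, with between 50848238 and 111908519 UMIs each. The median cell had 6875, 6427, 7223 and 2593 UMIs in that order, so young control was the shallowest. After removal of predicted doublets, 35590 of 36701 cells were kept in 64 clusters, of which 8 that stayed unnamed held 5.55% of cells. Names such as neutrophil-like rest on marker genes, none of which is a member. Pairs of libraries shared 14 to 29 cell barcodes. Rod-like cells, which should lack most members, gave the level of free RNA: 2.69, 2.14, 3.07 and 1.90 CPM for Il1b in aged CNV, aged control, young CNV and young control. A value was compared between libraries only with at least 20 UMIs over both, at least 20 cells of the class in both, and with the higher of the 2 levels at least 0.1 of that of the highest class of 20 or more cells in its library, and it is called higher or lower from a 2-fold ratio on. Intervals are 95% intervals (exact Poisson for a CPM, exact conditional binomial for a ratio) and cover counting error only, not the spread between mice. CPM are not corrected for transcript length, so levels are compared within a gene and not between genes. The number of cells of a class and the RNA per cell cannot be told apart in a library's total.

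**Figure D1:**
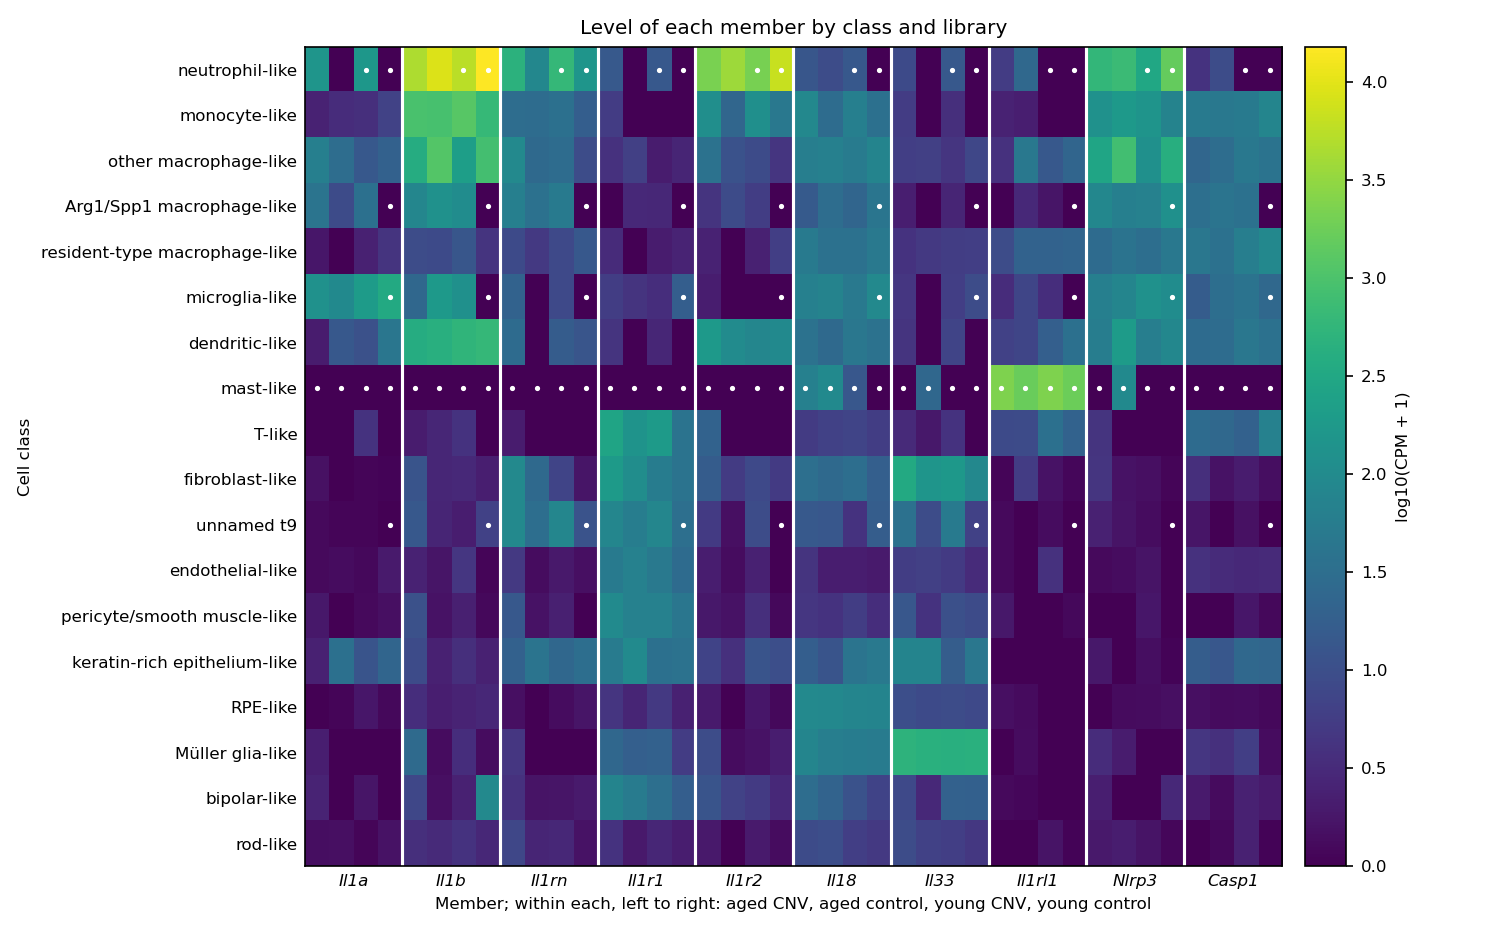
Level of each of the 10 members (columns, with aged CNV, aged control, young CNV and young control from left to right within each) in 18 cell classes (rows), as log10(CPM + 1). White dots mark sums of under 20 cells. Il1b, Il1r2 and Nlrp3 are brightest in neutrophil-like cells, except Nlrp3 in aged control, where other macrophage-like cells are. Il1rl1 is brightest in mast-like cells and Il33 in Müller glia-like cells, and Il18 lies over many classes at a similar level.

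Il1b, the main secreted interleukin 1 of myeloid cells, was concentrated in neutrophil-like cells, where it stood at 4613 CPM (4450 to 4780) in aged CNV, 9133 CPM (8600 to 9690) in aged control, 5574 CPM in young CNV and 15010 CPM in young control. The 2 young values rest on 19 and 3 cells and the aged ones on 208 and 28. Neutrophil-like cells thus had the highest Il1b level of any class in all 4 libraries, in the injured and the uninjured eye. At the level of cells, 146 of 208 in aged CNV, 28 of 28 in aged control, 18 of 19 in young CNV and 3 of 3 in young control had an Il1b UMI. In rod-like cells 0.801%, 0.743%, 0.673% and 0.308% had a UMI in that order, with median depths of 2797, 3294, 1946 and 1331 UMIs against 3208, 4200, 3631 and 3389 UMIs in neutrophil-like cells. Thinned to 1000 UMIs per cell, the share in neutrophil-like cells was 62.7%, 100%, 89.5% and 100%, and in rod-like cells 0.287%, 0.0861%, 0.234% and 0.118%.

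Between the aged libraries the Il1b ratio in neutrophil-like cells was 0.505 (0.471 to 0.542), just short of a 2-fold difference. The cells came from different clusters: 183 of 208 in aged CNV lay in cluster l5, led by Il1r2, Acod1 and S100a8, and 27 of 28 in aged control lay in cluster l19, led by S100a9, S100a8 and Retnlg. Within l19, with 25 and 27 cells, Il1b stood at 6939 CPM in aged CNV and 9074 CPM in aged control, a ratio of 0.765 (0.692 to 0.845). Il1b is among the leading genes of both clusters.

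Monocyte-like cells followed, with 940.4 CPM of Il1b in aged CNV, 900.2 in aged control, 1213 in young CNV and 635.7 in young control, all within 2-fold of each other. In macrophage-like cells outside the named subtypes (called other macrophage-like) the level was 384.8 CPM (347 to 425) in aged CNV and 1127 CPM (984 to 1286) in aged control, and 215.1 CPM (202 to 229) in young CNV and 861.1 CPM (788 to 939) in young control. Il1b was lower after laser in young mice, with a ratio of 0.25 (0.224 to 0.278), and 0.284 without the top cell of each library. The aged ratio was 0.341 (0.289 to 0.405), but a single cell held 40.5% of the aged control UMIs, and without the top cell of each library the ratio was 0.522 (0.426 to 0.642), short of 2-fold. The class is made of cluster l0, led by Aif1 and H2-Aa with Ms4a4c, which held 89 cells in aged CNV, 2 in aged control, 338 in young CNV and 5 in young control, and cluster l4, led by Cd86, Ccl4 and Cd83, which held 43, 29, 88 and 71.

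Within l4 alone, with all cells counted, the direction was the same: 532.9 CPM in aged CNV against 1220 CPM in aged control (ratio 0.437, 0.352 to 0.541), and 298.8 CPM in young CNV against 903.2 CPM in young control (0.331, 0.282 to 0.388). The top cells were not left out of these l4 ratios, and l4 held 29 of the 31 aged control cells of the class. Dendritic-like cells had 379.7, 429.5, 533.1 and 594.7 CPM in aged CNV, aged control, young CNV and young control, and no pair compared there differed by 2-fold. Microglia-like cells had 23.5 CPM of Il1b in aged CNV, 171 in aged control, 122 in young CNV and 0 in young control, where the class had 14 cells. Aged CNV, with 95% of its UMIs in a single cell, was lower than young CNV (ratio 0.192, 0.108 to 0.329). It stood at 0.137 of aged control (0.0778 to 0.233), a pair that was not called because its levels are under 0.1 of that in neutrophil-like cells. A bipolar-like count of 93 UMIs in young control (92.1 CPM, with 6.70 in aged CNV, 0.502 in aged control and 1.40 in young CNV) lay almost wholly in cluster t25, a group of cells with a median of 1484 UMIs.

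**Figure D2:**
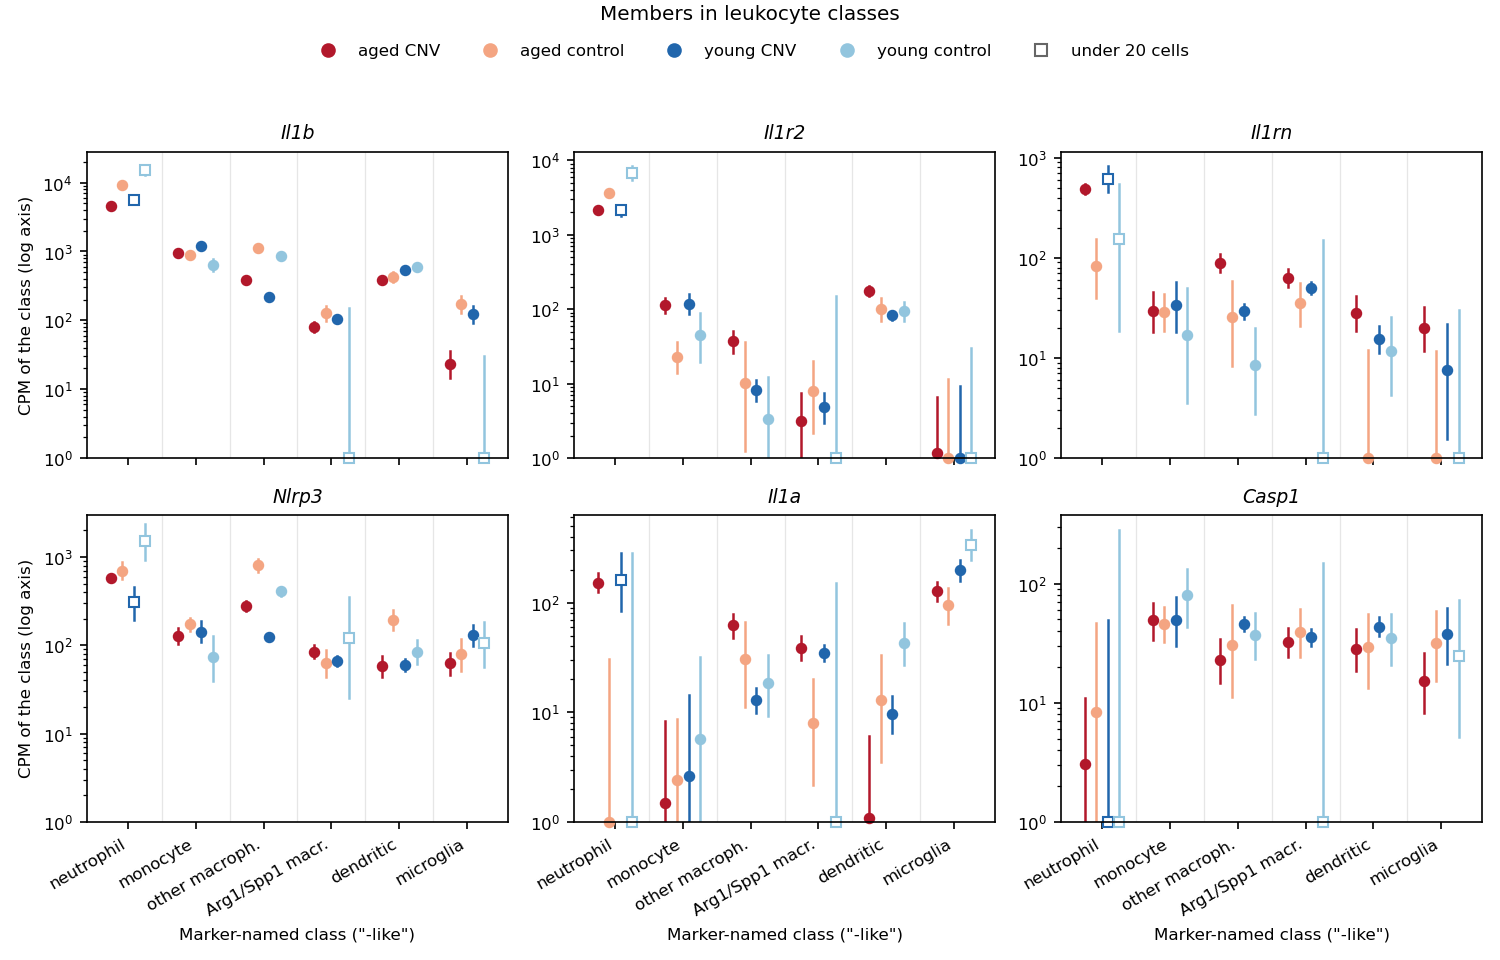
CPM (log axis) of 6 members in 6 leukocyte classes, with aged CNV, aged control, young CNV and young control from left to right, bars showing the 95% counting interval. Open squares mark sums of under 20 cells, and points on the bottom axis are 0 or below the axis minimum. Il1b and Il1r2 are highest in neutrophil-like cells, as is Nlrp3 except in aged control, where other macrophage-like cells stand higher. In other macrophage-like cells Il1b and Nlrp3 lie lower in both CNV libraries than in their controls, the aged Il1b pair by less than 2-fold without the top cell of each library.

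The cells that held the UMIs differed by library. Neutrophil-like cells held 55.9% of all Il1b UMIs in aged CNV and 43.3% in aged control, followed by monocyte-like cells with 11.7% and 29.4%. In young CNV dendritic-like cells held 32.3% and other macrophage-like cells 22.5%, and in young control other macrophage-like cells held 33% and dendritic-like cells 19.8%. Over whole libraries Il1b stood at 84.0 CPM in aged CNV, 53.3 in aged control, 42.8 in young CNV and 23.2 in young control. Neutrophil-like cells numbered 208, 28, 19 and 3 in these libraries and held 9.08% of Il1b UMIs in young CNV and 12.8% in young control.

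**Figure D3:**
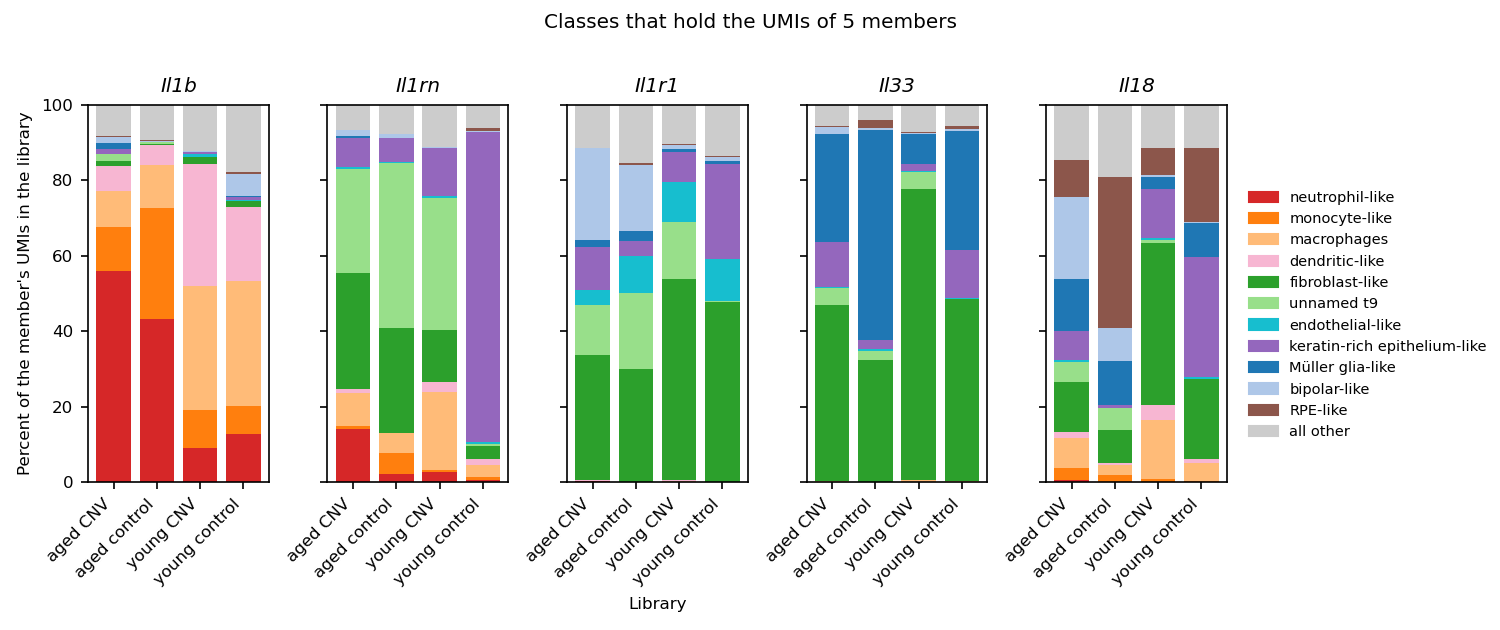
Percent of each member's UMIs in a library (bars, each summing to 100) that came from each cell class, for Il1b, Il1rn, Il1r1, Il33 and Il18. Neutrophil-like cells hold 55.9% of Il1b UMIs in aged CNV, and keratin-rich epithelium-like cells hold 82.0% of Il1rn UMIs in young control.

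Il1a, the interleukin 1 that acts as an alarmin in its precursor form, had its highest mean over libraries in microglia-like cells, at 127 CPM in aged CNV, 95.1 in aged control, 197 in young CNV and 338 in young control, the last from 14 cells. In aged CNV neutrophil-like cells stood above them. In this class Il1a was found in both CNV libraries, at 152 CPM (100 UMIs in 30 of 208 cells) in aged CNV and 160 CPM (12 UMIs in 4 of 19 cells) in young CNV, and at 0 UMIs in both controls. Against the limit that a count of 0 allows in aged control (3 counts over 28 cells), Il1a was at least 6.09-fold higher in aged CNV. That limit is wide in young control, where the class had 3 cells. In the aged pair 35.7% of all genes tested in this class were called higher and 11.6% lower. Its cells lay mostly in cluster l5 in aged CNV and in l19 in aged control.

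Unnamed cluster l16, led by Bank1, Cxcl2 and S100a8, had 9.88, 6.68, 0 and 69.4 CPM of Il1a in aged CNV, aged control, young CNV and young control. In other macrophage-like cells Il1a stood at 61.8 CPM in aged CNV, 30.5 in aged control, 12.9 in young CNV and 18.7 in young control. The aged CNV level was higher than that of young CNV by 4.78-fold (3.31 to 6.91), in l0 by 4.04-fold and in l4 by 4.41-fold. It was also 2.03-fold that of aged control, an interval (0.881 to 5.74) that includes 1. In macrophage-like cells led by Spp1 and Gpnmb (Arg1/Spp1 macrophage-like) it was 38.8 CPM in aged CNV and 7.90 in aged control (4.91, 1.82 to 18.6), with 34.5 in young CNV and 0 in the 1 cell of young control, where all 4 aged control UMIs lay in a single cell.

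Dendritic-like cells went the other way for Il1a in the young mice, with 9.71 CPM in young CNV and 43.0 in young control (0.226, 0.124 to 0.416). They had 1.08 CPM in aged CNV, and the aged control value of 13 CPM, from 4 UMIs, was lower than that of young control by the same rule (0.302, 0.0758 to 0.890). In keratin-rich epithelium-like cells the aged CNV level of 1.44 CPM was lower than the 34.4 CPM of aged control (0.0419), with 11.2 in young CNV and 22.4 in young control, but a single cell held 96.0% of the aged control UMIs.

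Il1rn, the receptor antagonist, was highest in neutrophil-like cells too, at 483.8 CPM (432 to 540) in aged CNV, 83.3 CPM (40.0 to 153) in aged control, 614.8 CPM in young CNV and 152.4 CPM in young control. It was higher in aged CNV than in aged control by 5.81-fold (3.12 to 12.2) while Il1b in the same cells stood at 0.505 of its control level. In this class 35.7% of all genes tested were called higher and 11.6% lower, and its cells changed cluster between the libraries. Within l19 the Il1rn ratio was 3.36 (1.51 to 8.20), from 24 and 9 UMIs.

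The largest stretch of Il1rn levels was seen in fibroblast-like cells, at 91.9 CPM in aged CNV, 25.8 in aged control, 6.30 in young CNV and 0.703 in young control. Aged CNV exceeded aged control by 3.56-fold (2.94 to 4.34) and young CNV by 14.6-fold (12.6 to 16.9), which came to between 4.85-fold and 5.79-fold under 5 other ways of making the classes. Aged control exceeded young control by 36.7-fold (21.1 to 69.1), the last from 125 and 14 UMIs. Most of it came from cluster t4, led by Edn3, Igfbp5, Lama2 and Angpt1 with Pgf, which held 290, 356, 666 and 628 cells in aged CNV, aged control, young CNV and young control. Fibroblast-like cluster t12 shares the leading genes Itgbl1, Myoc and Chil1 with unnamed cluster t9, described below. Cluster t12 held 15, 54, 433 and 527 cells in that order, and t9, outside the class, held 578, 570, 271 and 14. The class age ratios thus compare different mixes of clusters, and the part of this mix was not tested.

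In t4 Il1rn stood at 290.1 CPM (268 to 314) in aged CNV, 42.5 CPM in aged control, 34.5 CPM in young CNV and 1.71 CPM in young control, and the 4 intervals overlap only between aged control and young CNV. Cells with a UMI numbered 107 of 290, 60 of 356, 46 of 666 and 8 of 628. Laser went with a 6.83-fold higher level in aged mice (5.58 to 8.42) and 20.2-fold in young mice (10.1 to 47.5). Age went with a 24.9-fold higher level without lesions (12.2 to 59.0) and 8.40-fold after laser (7.13 to 9.95). In the other large fibroblast-like cluster, t2, led by Tnfaip6, Postn and Clec3b, the same gene stood at 13.6, 4.69, 2.08 and 0.818 CPM, and rod-like cells had 6.72, 1.67, 1.94 and 0.6 CPM, so that the t2 level is not far from that of free RNA.

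Unnamed cluster t9, led by Chil1, Itgbl1 and Mmp3, had 90.9 CPM of Il1rn in aged CNV, 31.1 in aged control, 81.2 in young CNV and 10.8 in young control, the last from 14 cells. It was higher in aged CNV than in aged control by 2.93-fold (2.49 to 3.45). Unnamed leukocyte cluster l8, led by Lyz1, Retnla and Ear2, had 174, 64.9, 104 and 144 CPM. In other macrophage-like cells Il1rn stood at 89.7 CPM in aged CNV, 25.4 in aged control, 29.2 in young CNV and 8.48 in young control. It was higher after laser in young mice by 3.44-fold (1.44 to 10.8) and in aged mice by 3.53-fold (1.46 to 11.2), each from 5 control UMIs, and the aged ratio turned round to between 0.537 and 0.804 under 3 other ways of clustering. Between the CNV libraries the aged level was higher by 3.08-fold (2.33 to 4.04), with 3.21-fold in both l0 and l4.

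Keratin-rich epithelium-like cells gave 18.9 CPM of Il1rn in aged CNV, 39.8 in aged control, 24.1 in young CNV and 30.7 in young control. The aged laser ratio of 0.475 (0.319 to 0.731) came to 0.649 without the top cell of each library. They held 82.0% of the Il1rn UMIs of young control, where fibroblast-like cells held few. In aged CNV the main sources were fibroblast-like cells with 30.7%, t9 with 27.6% and neutrophil-like cells with 14.0%, in aged control t9 with 43.8% and fibroblast-like cells with 27.9%, and in young CNV t9 with 35.0%.

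**Figure D4:**
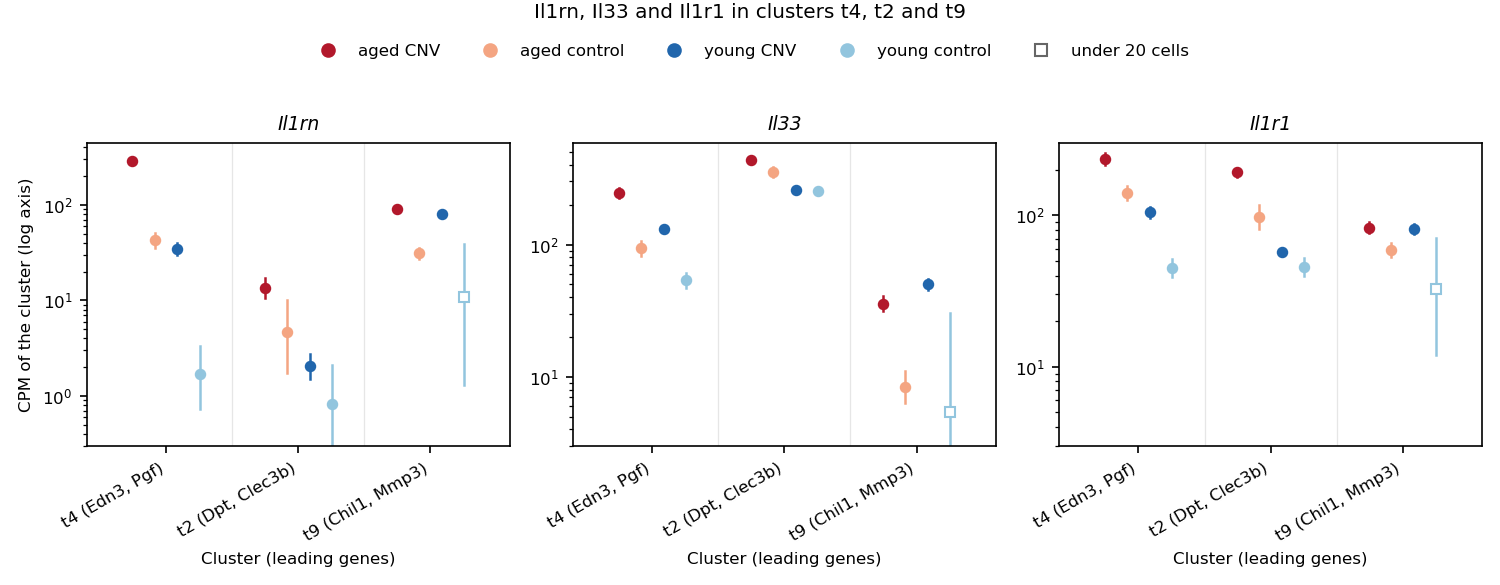
CPM (log axis) of Il1rn, Il33 and Il1r1 in fibroblast-like clusters t4 and t2 and unnamed cluster t9, with aged CNV, aged control, young CNV and young control from left to right and 95% counting intervals. The open square marks under 20 cells. In t4 all 3 genes are highest in aged CNV and lowest in young control, with Il1rn between 290.1 and 1.71 CPM, while t2 has the higher Il33 level and little Il1rn.

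Il1r1, the signalling receptor, had its highest class level in T-like cells, at 272 CPM in aged CNV, 139 in aged control, 186 in young CNV and 38.4 in young control, the last being 8 UMIs in a single cell. Against that young control value it was higher in aged control by 3.62-fold (1.79 to 8.54) and in young CNV by 4.85-fold (2.31 to 11.7). The class mean hides a sharp split between clusters. Cluster l17, led by Cd163l1, Trdc and Il17a, genes of gamma delta T cells that make interleukin 17, had 1085 CPM in aged CNV, 858.5 in aged control, 752.9 in young CNV and 470.4 in young control, with a UMI in 36 of 37, 16 of 17, 6 of 7 and 1 of 3 cells.

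Cluster l13, whose leading genes include Icos and Skap1 with Il23r, had 423 CPM of Il1r1 in aged CNV, 445.3 in aged control, 197 in young CNV and 0 in young control, the last from 4 cells. Aged CNV exceeded young CNV there by 2.15-fold (1.38 to 3.42). Cluster l3, led by Gm2682, Ccl5 and Themis with Cd8b1 and Nkg7, held 99, 116, 21 and 19 cells and 3, 0, 0 and 0 Il1r1 UMIs in aged CNV, aged control, young CNV and young control. T-like Il1r1 was thus carried by cells with genes of the interleukin 17 axis (Il23r is the receptor for interleukin 23), and the mix of clusters differed between libraries.

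**Figure D5:**
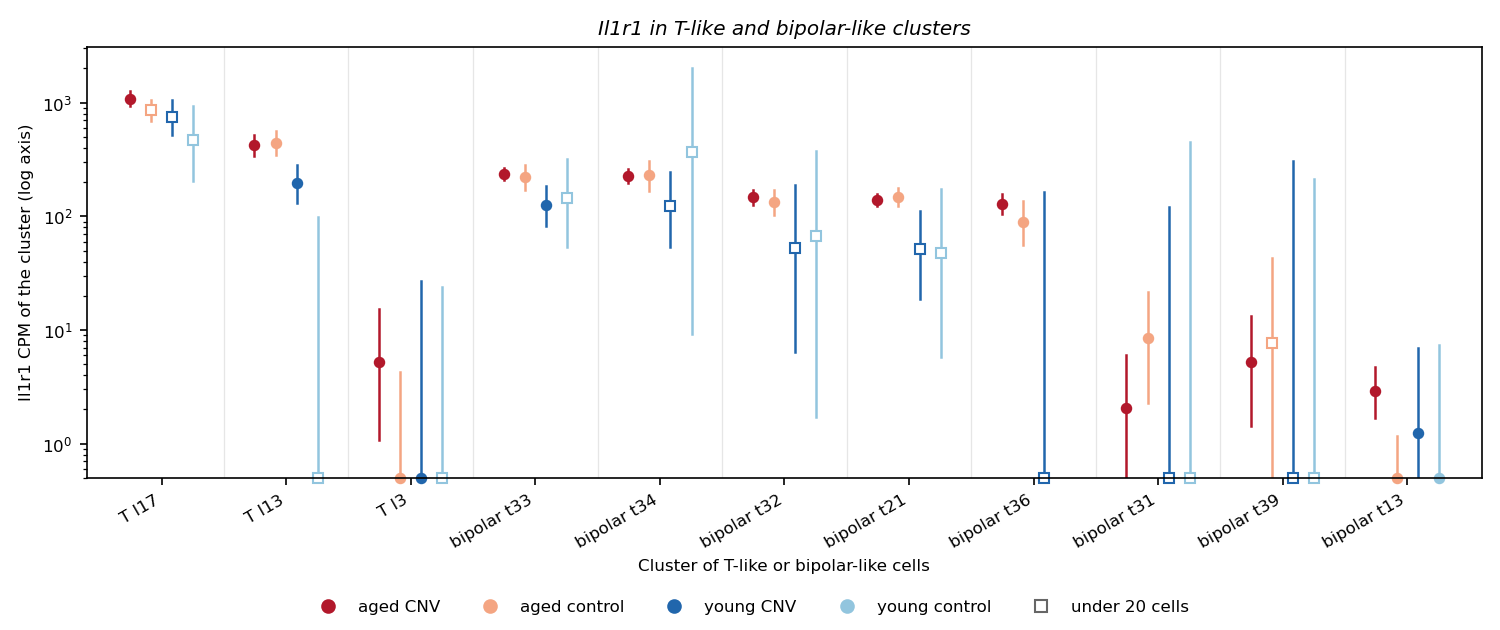
Il1r1 CPM (log axis) in T-like clusters l17, l13 and l3 and in 8 bipolar-like clusters, with aged CNV, aged control, young CNV and young control from left to right and 95% counting intervals. Open squares mark under 20 cells, and points on the bottom axis are 0 or below the axis minimum. The clusters fall into a high set, from l17 at 1085 CPM to t36 at 129.6 CPM in aged CNV, and a set of l3, t31, t39 and t13 at 5.24 CPM or less in aged CNV.

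Fibroblast-like cells came next for Il1r1, with 190.2 CPM (180.5 to 200.3) in aged CNV, 112 CPM (103 to 122) in aged control, 55.7 CPM (53.4 to 58.0) in young CNV and 37.6 CPM (35.0 to 40.4) in young control, and no intervals overlapping. The aged level was higher than the young by 2.99-fold (2.67 to 3.34) without lesions and by 3.42-fold (3.20 to 3.65) after laser, while the laser ratios were 1.70 in aged and 1.48 in young mice. Both large clusters showed it. In t4 Il1r1 stood at 235.4 CPM in aged CNV, 139.9 in aged control, 104.5 in young CNV and 44.8 in young control, with age ratios of 3.12 without lesions and 2.25 after laser and a young laser ratio of 2.33. In t2 the levels were 191.5, 97.7, 57.0 and 45.8 CPM, with age ratios of 2.13 and 3.36.

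In t9 the receptor stood at 82.5 CPM in aged CNV, 58.8 in aged control, 81.2 in young CNV and 32.4 in young control, without the age step between the CNV libraries (ratio 1.02, 0.905 to 1.14). Pericyte and smooth muscle-like cells had 98.6, 67.3, 67.1 and 43.2 CPM, all compared pairs within 2-fold. Endothelial-like cells had 51.9 CPM in aged CNV, 66.9 in aged control, 47.3 in young CNV and 28.2 in young control. Their control age ratio of 2.38 (1.92 to 2.94) came to 1.58 without the cell that held 38.0% of the aged control UMIs. Keratin-rich epithelium-like cells had 54.0 CPM of Il1r1 in aged CNV, 98.9 in aged control, 34.4 in young CNV and 37.1 in young control, with aged control higher than young control (2.66, 2.04 to 3.43).

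Neural and glial cells carried the receptor too. Müller glia-like cells had 24.1 CPM of Il1r1 in aged CNV, 17.1 in aged control, 18.7 in young CNV and 4.59 in young control, so that the young control value was exceeded by aged control 3.73-fold (1.95 to 7.71) and by young CNV 4.07-fold (2.02 to 8.72). Bipolar-like cells had 76.0, 53.6, 32.1 and 16.8 CPM in the same order, with age ratios of 3.18 (1.96 to 5.53) without lesions and 2.37 (1.76 to 3.25) after laser.

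Bipolar-like clusters differed from each other far more than libraries did. Cluster t33, led by Grik1 and Slit2, had 235.9 CPM of Il1r1 in aged CNV, 220.8 in aged control, 125.0 in young CNV and 145.8 in young control. Cluster t34, led by Cntn5 and Adarb2, had 226.0, 228.9, 124 and 366 CPM, cluster t32 had 147, 132, 52.4 and 67.2 CPM, and cluster t21 had 138, 148, 51.4 and 47.9 CPM. Cluster t13, led by Lrrtm4, Gm20754 and Trpm1 with Pcp2, had 2.91, 0, 1.25 and 0 CPM, and it made up 562 of 1558, 274 of 577, 96 of 211 and 67 of 316 bipolar-like cells. Cluster t25 added 219 of the 316 cells of young control, so the class age ratio and the mix of clusters move together and their parts were not told apart. In t33, the only bipolar-like cluster of at least 20 cells in both CNV libraries with enough UMIs, the age ratio was 1.89 (1.26 to 2.94), from 290 and 26 UMIs. In unnamed cluster l14, which mixes leukocyte and muscle genes (led by Mylpf, Acta1 and Ttn), Il1r1 stood at 66.2 CPM in aged CNV and 18.4 in young CNV (3.60, 1.93 to 7.07), with 67.8 and 6.54 CPM in 8 and 9 cells of aged and young control.

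Over all classes, Il1r1 was called higher in aged control than in young control in 6 classes and lower in 0, with 1 further class compared, beside 9.11% of the values of all genes higher and 7.21% lower. The endothelial-like class is 1 of these 6 and was under 2-fold without its top cell. Between the CNV libraries it was higher in aged mice in 3 of 9 classes compared and lower in 0, beside 10.1% and 5.92%. After laser it was higher in 2 of 9 classes in young mice (4.33% of all values) and in 0 of 7 in aged mice (6.57%).

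Il1r2, the decoy receptor, followed the pattern of Il1b, at 2159 CPM (2048 to 2274) in aged CNV, 3692 CPM (3356 to 4052) in aged control, 2125 CPM in young CNV and 6782 CPM in young control in neutrophil-like cells. The aged laser ratio was 0.585 (0.525 to 0.652), short of 2-fold, and 0.540 (0.450 to 0.646) within l19. Unnamed l16 had 444.7, 53.4, 71.8 and 19.8 CPM in aged CNV, aged control, young CNV and young control. Dendritic-like cells had 176, 101, 82.7 and 93.9 CPM, with a single cell holding 31.5% of the aged CNV UMIs.

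Monocyte-like cells had 115 CPM of Il1r2 in aged CNV, 23.0 in aged control, 119.5 in young CNV and 45.4 in young control, and young CNV was higher than young control by 2.63-fold (1.23 to 6.45). The aged pair was not compared, because the higher level, in aged CNV, is under 0.1 of that in neutrophil-like cells of the same library, and the young neutrophil-like sums of under 20 cells did not enter that limit. Neutrophil-like cells held 62.2% of Il1r2 UMIs in aged CNV and 76.8% in aged control. In young CNV the largest share, 28.0%, lay in fibroblast-like cells and in young control 27.6% lay in keratin-rich epithelium-like cells.

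Il33, the nuclear alarmin, was a gene of Müller glia-like and fibroblast-like cells. Müller glia-like cells, the radial glia of the retina, had 495.8 CPM (472 to 520.5) in aged CNV, 450.0 CPM (425.5 to 475.5) in aged control, 429.8 CPM (398 to 463) in young CNV and 440.7 CPM (416 to 467) in young control. Their 4 levels lay within a 1.15-fold range, and 250 of 303, 227 of 264, 129 of 161 and 278 of 341 cells had a UMI, against 2.0%, 1.16%, 1.06% and 0.650% of rod-like cells. Neither laser nor age came near a 2-fold ratio there: laser gave 1.10 (1.02 to 1.19) in aged and 0.975 (0.886 to 1.07) in young mice, and age 1.02 (0.942 to 1.11) without lesions and 1.15 (1.06 to 1.26) after laser.

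Fibroblast-like cells had 347.8 CPM (335 to 361) of Il33 in aged CNV, 151 CPM (140.3 to 162) in aged control, 169 CPM (165 to 173) in young CNV and 88.9 CPM (84.8 to 93.1) in young control. It was higher after laser in aged mice by 2.30-fold (2.12 to 2.50), and the young ratio of 1.90 (1.8 to 2.0) was just short of 2-fold. The age ratio after laser was 2.06 (1.97 to 2.16) and came to between 1.32 and 1.81 under other scalings and clusterings. As for Il1rn, the numbers of t12 cells inside the class and of t9 cells outside it differed by age.

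The clusters separated these differences. In t2, which had the highest fibroblast-like level, Il33 stood at 436.8 CPM in aged CNV, 354.7 in aged control, 258.5 in young CNV and 255.4 in young control, with laser ratios of 1.23 (1.11 to 1.37) in aged and 1.01 (0.952 to 1.08) in young mice. In t4 it stood at 245.7, 93.6, 132 and 53.6 CPM, with laser ratios of 2.63 (2.25 to 3.06) and 2.46 (2.12 to 2.85). Other fibroblast-like clusters had lower Il33 in young CNV than in young control. The ratios were 0.546 (0.391 to 0.754) in t12, 0.552 (0.396 to 0.767) in t27 and 0.780 (0.552 to 1.11) in t20. Cluster t4 is also the cluster of the Il1rn values above, so both the alarmin and the antagonist were higher there after laser at both ages. In t9 Il33 stood at 35.8 CPM in aged CNV, 8.40 in aged control, 49.9 in young CNV and 5.41 in young control, the aged pair 4.26-fold apart (3.16 to 5.85). The share of t2 among fibroblast-like cells also differed, at 528 of 903, 142 of 589, 1457 of 2963 and 393 of 1803 cells.

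Unnamed cluster t40, whose leading genes include Penk and Crhbp, had 371, 510.7, 559 and 199 CPM of Il33 in aged CNV, aged control, young CNV and young control, and young CNV was higher than young control by 2.81-fold (2.12 to 3.78). Keratin-rich epithelium-like cells had 74.5, 76.9, 16.2 and 43.5 CPM, and aged CNV was higher than young CNV by 4.60-fold (3.86 to 5.52). In skeletal muscle-like cells the levels were 294.5, 239, 12.8 and 117 CPM. The young laser ratio was 0.110 (0.0583 to 0.200), the control age ratio 2.04 (1.17 to 3.52; 1.98 without the top cell) and the CNV age ratio 23.0 (13.7 to 40.5), which was 10.1 without the cell that held 63.2% of the aged CNV UMIs.

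Schwann-like cells had 127 CPM of Il33 in aged CNV, 88.2 in aged control, 65.8 in young CNV and 37.9 in young control, and the called control age ratio of 2.33 rests on 14 UMIs in a single aged control cell. Unnamed l14 had 93.0 CPM in aged CNV and 23.3 in young CNV (4.0, 2.33 to 7.16), with 11.3 and 6.54 CPM in 8 and 9 cells of aged and young control. Cells of the retinal pigment epithelium (RPE-like) were near the rod-like level, with 8.95, 7.63, 8.20 and 7.51 CPM. Fibroblast-like cells held 46.7% of all Il33 UMIs in aged CNV, 32.3% in aged control, 77.1% in young CNV and 48.3% in young control, and Müller glia-like cells 28.7%, 55.6%, 8.01% and 31.5%.

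Il1rl1, the receptor of interleukin 33, was concentrated in mast-like cells, at 2358 CPM in aged CNV, 1685 in aged control, 2380 in young CNV and 1758 in young control. A UMI was seen in 12 of 15, 11 of 12, 12 of 13 and 2 of 2 mast-like cells, too few for a comparison between libraries. Unnamed l8, whose leading genes include Cd226 and Dok2, came next with 44.6, 130, 59.8 and 114 CPM in aged CNV, aged control, young CNV and young control. T-like cells had 7.59, 8.03, 34.1 and 19.2 CPM, each from 11 UMIs or fewer.

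Other macrophage-like cells had 2.99 CPM of Il1rl1 in aged CNV, 45.7 in aged control, 13.1 in young CNV and 22.0 in young control, lower in aged than in young CNV (0.228, 0.0458 to 0.697). The aged control value exceeded that of young control by 2.07-fold (0.782 to 5.24, from 9 and 13 UMIs), which came to 1.91 without the top cell of each library and turned to 0.840 when cells were sorted by their own marker UMIs. Resident-type macrophage-like cells had 8.41 CPM in aged CNV, 19.2 in aged control, 19.5 in young CNV and 21.2 in young control, with aged CNV lower than young CNV (0.431, 0.203 to 0.834). Dendritic-like cells had 5.42, 6.51, 17.6 and 33.3 CPM in that order, again with a lower aged than young CNV (0.308, 0.0957 to 0.768). These 3 calls between the CNV libraries rest on 11 aged UMIs or fewer each, in a comparison that called 5.92% of the values of all genes lower and 10.1% higher.

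Il18, the other substrate of Casp1, was spread over many classes. RPE-like cells led with 92.5 CPM in aged CNV, 87.8 in aged control, 80.0 in young CNV and 76.3 in young control, with every compared pair within 1.16-fold. Müller glia-like cells had 78.5, 59.5, 55.4 and 54.3 CPM, other macrophage-like cells 59.8, 66.0, 52.9 and 76.3 CPM and microglia-like cells 65.8, 72.9, 47.5 and 90.7 CPM, and the intervals of these 3 classes overlap in aged control. Fibroblast-like cluster t2 had 45.3, 54.7, 50.7 and 53.6 CPM. In these leading classes no compared pair of Il18 levels reached a 2-fold difference.

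Differences in Il18 of 2-fold or more were seen in other classes, mostly at lower levels, though monocyte-like cells of aged CNV stood near the RPE-like level. Monocyte-like cells had 89.3 CPM in aged CNV and 29.1 in aged control (3.07, 1.88 to 5.16), against 62.3 in young CNV and 34.1 in young control. Keratin-rich epithelium-like cells were lower in aged than in young mice, with 16.4 CPM in aged CNV and 40.0 in young CNV (0.410, 0.337 to 0.497), and 11.0 CPM in aged control and 48.2 in young control (0.228, 0.0980 to 0.453). Bipolar-like cells were higher in aged mice, with 29.6 CPM in aged CNV and 10.5 in young CNV (2.83, 1.70 to 5.10), and 20.3 CPM in aged control and 5.94 in young control (3.41, 1.52 to 9.47). As with Il1r1, cluster t21 had most of it, at 76.0, 72.2, 34.2 and 47.9 CPM, and t13 almost none, at 4.19, 0.956, 1.25 and 6.01 CPM. The 2 control age calls rest on few UMIs in the lower library. Without the top cell of each library, 2 aged control UMIs remained in keratin-rich epithelium-like cells and 3 young control UMIs in bipolar-like cells.

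Most of the remaining calls for Il18 also rest on few UMIs or on a level near that of free RNA. Cluster t9 had 13.9 CPM in aged CNV, 12.5 in aged control, 3.13 in young CNV and 16.2 in young control (aged over young CNV 4.45, 2.82 to 7.28). Skeletal muscle-like cells had 37.2, 66.9, 17.1 and 13.8 CPM in that order, and their CNV age ratio of 2.18 (0.963 to 4.62) came to 1.58 without the top cell of each library. Rod-like cells had 8.07, 9.05, 4.85 and 3.9 CPM, and their control age ratio of 2.32 (1.44 to 3.72) turned to 0.906 within rod-like cluster t7. Arg1/Spp1 macrophage-like cells had 14.0, 29.6, 22.3 and 40.6 CPM, the last from 1 cell, and their aged laser ratio of 0.472 (0.234 to 0.978) came to 0.536 without the top cell. Schwann-like cells had 21.8 CPM in aged CNV, 18.9 in aged control, 23.3 in young CNV and 7.57 in young control (young laser ratio 3.07, 0.968 to 15.6). Melanocyte-like cells had 21.2, 88.6, 22.2 and 46.2 CPM, that of aged control from 11 cells (young laser ratio 0.481, 0.283 to 0.807). This young ratio came from 28 and 37 UMIs and was 0.448 without the top cell of each library. RPE-like cells held 40.1% of Il18 UMIs in aged control, fibroblast-like cells 42.8% in young CNV, keratin-rich epithelium-like cells 32% in young control and bipolar-like cells 21.8% in aged CNV.

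Nlrp3, the inflammasome sensor, had its highest mean over libraries of at least 20 cells in neutrophil-like cells, at 573.5 CPM (517 to 634.5) in aged CNV, 700.0 CPM (558 to 867) in aged control, 307 CPM in young CNV and 1524 CPM in young control, the last 20 UMIs of which 80.0% lay in a single cell. In aged control other macrophage-like cells stood above them. The aged intervals of neutrophil-like cells overlap, and their ratio was 0.819 (0.645 to 1.05). In other macrophage-like cells it stood at 279 CPM in aged CNV and 802.3 CPM in aged control (0.348, 0.285 to 0.426), and at 124 CPM in young CNV and 407 CPM in young control (0.305, 0.262 to 0.356). It was lower after laser at both ages, also without the top cell of each library (0.420 in aged and 0.318 in young mice).

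Within single clusters the Nlrp3 ratios were nearer to 1. Cluster l4 counts Nlrp3 among its leading genes and made up most of the class in both controls, and within it the levels were 578.8 CPM in aged CNV, 916.5 in aged control, 291.0 in young CNV and 440.5 in young control. The laser ratios within l4 were 0.632 (0.504 to 0.791) in aged and 0.661 (0.548 to 0.796) in young mice, under a 2-fold difference. The aged CNV level of the class was 2.25-fold that of young CNV (1.94 to 2.59), which came to 1.74 within l0 and 1.99 within l4.

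Monocyte-like cells had 128 CPM of Nlrp3 in aged CNV, 173 in aged control, 143 in young CNV and 73.8 in young control, and aged control was higher than young control by 2.35-fold (1.33 to 4.52, from 143 and 13 UMIs). Dendritic-like cells had 58.6, 195, 60.4 and 84.1 CPM. Aged control stood out among them, with aged CNV lower than it (0.3, 0.204 to 0.441) and itself higher than young control (2.32, 1.54 to 3.52). Microglia-like cells had 62.2 CPM of Nlrp3 in aged CNV, 79.2 in aged control, 129.9 in young CNV and 107 in young control, with aged CNV lower than young CNV (0.479, 0.321 to 0.717). Unnamed l8 had 97.3, 13, 23.8 and 45.4 CPM, the controls from 8 and 10 cells, with aged CNV higher than young CNV (4.09, 2.34 to 7.03), with 45.8% of the aged CNV UMIs in a single cell.

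Casp1, the protease that cleaves the precursors, was nearly absent where Il1b was highest: neutrophil-like cells had 2, 1, 0 and 0 UMIs in aged CNV, aged control, young CNV and young control, or 3.04, 8.33, 0 and 0 CPM. It was highest in resident-type macrophage-like cells, at 45.1 CPM in aged CNV, 34.6 in aged control, 61.1 in young CNV and 88.0 in young control, and in monocyte-like cells, at 49.1, 46.0, 49.3 and 79.5 CPM. The intervals of these classes overlap in each of the 4 libraries. Unnamed l12, led by Ppbp and Retnlg, had 0, 0, 83.5 and 51.6 CPM, from 4 UMIs or fewer each.

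Casp1 had 8 calls, all lower: 4 between the CNV libraries, 2 between the controls and 1 in each laser comparison, beside 5.92%, 7.21%, 4.27% (aged laser) and 4.18% (young laser) of the values of all genes. Resident-type macrophage-like cells were lower in aged control than in young control (0.393, 0.171 to 0.803). T-like cells had 28.2 CPM in aged CNV, 25.0 in aged control, 18.6 in young CNV and 67.2 in young control, with aged control (0.372, 0.189 to 0.764) and young CNV (0.277, 0.0872 to 0.767) lower than young control. Without the top cell of each library these T-like ratios came to 0.464 (0.215 to 1.08) and 0.323 (0.0866 to 1.04), with intervals that include 1. The second then rested on 5 and 10 UMIs. Between the CNV libraries other macrophage-like cells had 22.9 CPM in aged CNV, from 23 UMIs, and 46.1 in young CNV, from 221 UMIs (0.498, 0.309 to 0.766), with 30.5 and 37.3 CPM in aged and young control. Unnamed l14 had 8.94 CPM in aged CNV and 31.8 in young CNV (0.281), with 0 and 32.7 CPM in the few cells of aged and young control, and unnamed l8 had 20.3 and 53.3 CPM (0.380), with 19.5 and 37.9 CPM in these controls. Microglia-like cells had 15.3 CPM in aged CNV, 31.7 in aged control, 37.5 in young CNV and 24.7 in young control. Their ratios of 0.482 (0.195 to 1.23) in the aged laser comparison and 0.408 between the CNV libraries came to 0.529 and 0.522 without the top cell of each library.

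Counted over members and classes, the aged laser comparison called 9 values higher and 7 lower of 54 compared, beside 6.57% higher and 4.27% lower of the 184648 values of all genes. The young laser comparison called 6 higher and 7 lower of 54, beside 4.33% and 4.18% of 164675. Aged against young gave 14 higher and 5 lower of 43 without lesions, beside 9.11% and 7.21% of 135984, and 15 higher and 10 lower of 69 after laser, beside 10.1% and 5.92% of 205406. Values compared passed the UMI, cell and free RNA filters, and a value that is high in only 1 library passes more easily when it differs, so these counts describe the compared values and not all member values. The comparisons share libraries, so their calls are not independent of each other.

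The other genes of the pathway, 56 genes in 4 lists, were read in the classes where members stood out. In Müller glia-like cells, 4 of 7 compared genes that IL-1 and NF-kB signalling are known to raise were higher in young CNV and 0 lower, with a median log2 ratio of 1.01 against -0.09 for all genes (2.33% of which were called higher). In the aged pair 3 of 6 were higher and 0 lower, with a median of 0.90 against -0.03 (4.41% of all genes higher). Lcn2, a secreted iron-binding protein of the acute response, stood at 1608 CPM in aged CNV and 67.7 CPM in aged control (23.8-fold, 20.6 to 27.6) and at 367 CPM in young CNV and 8.03 CPM in young control (45.7-fold, 29.6 to 74.4). Nfkb2, an NF-kB subunit, stood at 13.7 CPM in aged CNV and 2.49 in aged control (5.51-fold), and Nfkbia, the NF-kB inhibitor that the pathway itself induces, at 138.7 CPM in young CNV and 58.1 in young control (2.39-fold). The receptor and adaptor list had 2 of 11 higher in the aged pair and 0 of 9 in the young pair, among them Myd88 with 12.2 CPM in aged CNV and 3.56 in aged control (3.43-fold), and 0 lower in both.

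In fibroblast-like cells 2 of 14 such target genes were higher in aged CNV than in aged control and 1 lower, with a median log2 ratio of 0.13 against -0.14 (3.55% of all genes higher, 3.76% lower). Saa3, an acute phase protein, stood at 104 CPM in aged CNV and 11.1 in aged control (9.35-fold, 7.09 to 12.6), Il6 at 184 and 52.2 CPM (3.52-fold) and Ptgs2, the inducible cyclooxygenase, at 90.4 and 239.6 CPM (0.378). In the young pair 0 of 12 were higher and 1 was lower, Icam1 with 80.3 CPM in young CNV and 165.5 in young control (0.486), with a median of -0.41 against -0.08 (2.27% of all genes higher, 2.73% lower). Between the CNV libraries 3 of 13 were higher in aged mice and 0 lower, with a median of 0.66 against 0.11 (7.94% of all genes higher), led by Saa3 with 104 CPM in aged CNV and 3.17 in young CNV (32.8-fold) and by Cxcl5 (2.72-fold). Between the controls 1 of 12 was higher, Nfkb1 (2.16-fold), and 1 lower, Cxcl1 (0.496), with a median of 0.24 against 0.15 (6.58% of all genes higher, 5.23% lower). These ratios are of the whole class, whose mix of clusters differed between libraries. Cluster t2 held 528 of 903, 142 of 589, 1457 of 2963 and 393 of 1803 cells in aged CNV, aged control, young CNV and young control.

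In neutrophil-like cells of the aged pair the inflammasome list had 6 of 10 genes higher in aged CNV and 1 lower, with a median log2 ratio of 1.2 against 0.55 for all genes (35.7% of which were higher and 11.6% lower). Aim2, a DNA sensor, stood at 312 CPM in aged CNV and 33.3 in aged control (9.36-fold, 3.60 to 34.7), Nlrp1b at 114 CPM in aged CNV and 0 UMIs in aged control (at least 4.56-fold), and Gsdme, a pore former, at 80.6 and 166.7 CPM (0.484). The receptor and adaptor list had 3 of 10 higher, a share near that of all genes, and 3 lower (median -0.03), with Il1rap, the accessory chain of the receptor, at 344 CPM in aged CNV and 1725 CPM in aged control (0.199, 0.164 to 0.242) and the kinase Irak2 at 621 and 142 CPM (4.38-fold). Of target genes 2 of 12 were higher, a smaller share than that of all genes, and 1 lower (median 0.60), with Cxcl2 at 4921 and 1350 CPM (3.65-fold), Icam1 at 265 and 33.3 CPM (7.94-fold) and Lcn2 at 257 and 858.3 CPM (0.3). Lcn2 is also among the markers that name this class. These ratios compare different mixes of clusters, mostly l5 in aged CNV and mostly l19 in aged control.

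In other macrophage-like cells of the young pair, 4 of 12 receptor and adaptor genes, 4 of 15 inflammasome genes and 4 of 13 target genes were lower in young CNV, and 0, 1 and 0 higher, with median log2 ratios of -0.46, -0.26 and -0.74 against -0.02 for all genes (8.49% of which were higher and 9.86% lower). Irak2 stood at 104 CPM in young CNV and 274.6 in young control (0.380), Nlrp1b at 49.0 and 189.8 CPM (0.258) and Cxcl1 at 57.1 and 200.0 CPM (0.286). They were lower together with Il1b and Nlrp3, in a class held mostly by l0 in young CNV and mostly by l4 in young control. The exception was Ninj1, which mediates the rupture of dying cells, at 244.3 CPM in young CNV and 105 in young control (2.32-fold). In the aged pair 1 of 9 receptor and adaptor genes was higher and 0 lower, 3 of 14 inflammasome genes were higher and 3 lower, and 1 of 14 target genes was higher and 1 lower, with medians of 0.18, 0.25 and -0.04 against -0.01 (11.9% of all genes higher, 8.79% lower).

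Il18bp, the secreted antagonist of interleukin 18, was the only compared gene of the list of further ligands and decoys in several classes. It was higher after laser in Müller glia-like cells of aged mice, with 18.9 CPM in aged CNV and 7.48 in aged control (2.53-fold, 1.52 to 4.37), and of young mice, with 14.9 CPM in young CNV and 6.12 in young control (2.44-fold, 1.24 to 4.92). In fibroblast-like cells the aged pair had 14.6 CPM in aged CNV and 5.78 in aged control (2.53-fold, 1.66 to 3.98). In other macrophage-like cells of young mice it had 26.7 CPM in young CNV and 8.48 in young control (3.15-fold, 1.31 to 9.86). The Il18 level itself differed by under 2-fold in these classes in the same comparisons.

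Genes with the profile most like a member were ranked by Pearson correlation of log2(CPM + 5) over 98 class and library sums, among 12351 genes. The sums share libraries and depth, so the values are given as a description. Nlrp3 was the closest gene to Il1b (r = 0.916), and for Nlrp3 it was Nlrp1a (0.920), another inflammasome sensor. Il1r2 lay closest to Mcemp1 (0.847) and to Il1bos (0.843), an antisense gene at Il1b whose reads cannot be told apart from those of Il1b unless strand was counted. Il33 lay closest to Efemp1 (0.875), a matrix gene, Casp1 to Gna15 (0.876), Il1rl1 to Dok2 (0.791), Il1a to Tnf (0.737), Il1rn to Pgd (0.699) and Il18 to Tmem141 (0.621).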

How the data were processed

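Retina and choroid cells of 4 libraries, 1 per group, were read from a matrix of 24783 genes and 36701 cells. The authors deposited this matrix as unnormalised counts (whole UMIs). Column prefixes gave the library, and e was read as aged, the only other code beside y for young. Cell Ranger, Seurat 4.1.1 and the mm10 build are named, without roles, per the submitters' processing notes. The annotation is not given in the sources used here, nor the strand setting. No cells were left unmapped (0 columns).

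From these counts, cells with at least 200 genes were taken and predicted doublets (Scrublet score over 0.2 in scanpy 1.11.5) removed. Cells were clustered (2000 variable genes without the members and pathway lists, 40 components, Leiden resolution 1.0), leukocytes again on their own, and clusters were named from marker genes. The thresholds for naming were set after cluster tables had been seen. For each class of a library, UMIs were added up and divided by their total (scipy 1.17.1, Python 3.11.15). There is 1 library per group, so counting intervals and a 2-fold rule stand in for a test, and a count of 0 allows 3 counts. The ratio code was tested on simulated data. Of 11 planned and 2 added alternatives, scalings came from edgeR 4.0.16, and the added ones (the top cell left out, ratios within single clusters) were chosen after seeing the data. Members and lists were chosen with earlier results of these data known.

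Values in every library are given for the 3 classes with the highest mean CPM of a member and for each class past 2-fold. For profiles most like a member the 3 highest correlations were taken, of which the text gives 1 or 2 (for Il1r1 they are not reported here), and of each pathway list at most the 2 genes a side past 2-fold whose nearer interval bound lay farthest from 1. Il18bp, Ninj1 and clusters t25 and l16 were named after their values were seen.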

Additional observations from a re-analysis of the deposited data

Results flagged for a closer look

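Of the member values whose laser ratio pointed in opposite ways in young and aged mice, 2 were flagged. Others did so too, such as Il33 in skeletal muscle-like cells, with a young ratio of 0.110 and a higher level in aged CNV than in aged control. Without the top cell of each library the aged direction of this Il33 value turned round, with 108.3 CPM in aged CNV and 191.1 CPM in aged control. Il1r1 in endothelial-like cells had a ratio of 0.775 (aged CNV over aged control) and of 1.68 (young CNV over young control), both under a 2-fold difference. The aged ratio came to 1.06 without the cell with the most UMIs in each library. Nlrp3 in monocyte-like cells had a ratio of 0.739 in aged mice and of 1.94 in young mice, the young one from 55 and 13 UMIs. With 1 library per group, the difference between the ages was not tested for any of these values.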

How the results depend on the processing

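With 1 library per group no value has a replicate check, and library, batch and group cannot be told apart. No paired analysis was possible because each group is a single library. Of the 73 called values, 62 of 70 stayed past 2-fold under trimmed mean scaling and 62 of 70 under median-of-ratios scaling, 56 of 62 with doublets kept, 57 of 63 and 52 of 58 at Leiden resolutions 0.5 and 2.0, 62 of 66 with members kept for clustering, 24 of 38 with cells sorted by their own marker UMIs, 21 of 26 with cells thinned to 1000 UMIs and 58 of 63 without the top cell, where Il1b in other macrophage-like cells of the aged pair (0.522) no longer passed the filters. Of 30 called values that could be recomputed within single clusters, 18 stayed past 2-fold the same way in every such cluster. Scaling moved the median of all genes by between -0.42 and 0.76 (log2, trimmed mean; over 0.1 in 46 of 82 class pairs) and between -0.42 and 0.79 (median-of-ratios; 43 of 82), relative to totals. Reversed were Il1rn in other macrophage-like cells in the aged laser comparison (0.804 with doublets kept, 0.537 at resolution 0.5, 0.748 with members kept for clustering), and between the controls Il1rl1 in other macrophage-like cells (0.840 by own marker UMIs) and Il18 in rod-like cells (0.906 within cluster t7). Counts of called values that moved by over 1.5 times were, for values higher in aged CNV than aged control (9), 5 after thinning and 28 without the free RNA limit. For values lower there (7) they were 12 with no minimum of UMIs, 4 at 50 UMIs, 3 by own marker UMIs, 3 after thinning and 2 without the top cell. For values higher in young CNV than young control (6) they were 10 under trimmed mean scaling, 3 after thinning, 14 without the free RNA limit and 12 without the top cell, and for lower ones (7) 3 after thinning. Between the controls, values higher in aged mice (14) came to 5 after thinning and 9 without the top cell, and lower ones (5) to 8 with no minimum, 3 at 50 UMIs, 2 after thinning and 8 without the free RNA limit. Between the CNV libraries, values higher in aged mice (15) came to 6 by own marker UMIs, 9 after thinning and 37 without the free RNA limit, and lower ones (10) to 6, 1 and 17. Thinning and the stricter minimum leave fewer values to compare; for the others the cause was not tested.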

Other observations

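Endothelial-like cells of the control libraries differed in several genes that IL-1 and NF-kB signalling are known to raise, which stood lower in aged control. Cxcl1, a neutrophil attractant, had 7.10 CPM in aged control and 83.9 CPM in young control (ratio 0.0847, 0.0506 to 0.134), and Ptgs2 had 1.87 and 24.9 CPM (0.0750, 0.0240 to 0.179). Of 12 compared genes of that list 4 were lower and 0 higher, with a median log2 ratio of -0.49 against 0.08 for all genes (5.62% of which were lower). This was not particular to the class. Bipolar-like cells had 3 of 5 lower and 0 higher (10.4% of all genes lower). Resident-type macrophage-like cells had 5 of 12 lower and 2 higher (6.71% of all genes lower), but monocyte-like cells 1 of 11 lower and 2 higher (5.48% of all genes lower). The mix of endothelial-like clusters also differed, with 25 cells of cluster t18 in aged control and 125 in young control. Il1r1 in endothelial-like cells stood the other way, at 66.9 CPM in aged control and 28.2 CPM in young control. Without the top cell of each library it had 41.5 and 26.2 CPM, a ratio of 1.58 that is under 2-fold.

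Unnamed cluster l16, which counts Il1b, S100a8 and Cxcl2 with Bank1 among its leading genes, had 667 CPM of Il1b in aged CNV, 667.8 in aged control, 457 in young CNV and 585.0 in young control, from 21, 10, 11 and 27 cells. A UMI of Il1b was seen in 10, 3, 4 and 6 of these cells, so the level rests on few cells in each library.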
